A study of Homo sapiens with 7 samples.

Results

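The earliest time of a TEAD1 knockdown series was compared with untreated cells in HepG2, an established human hepatocellular carcinoma line. TEAD1 binds DNA and carries out the transcriptional output of the Hippo pathway, and the series asked which miRNAs it regulates. The untreated library (0 h, genotype given as wild type) came from cells without siRNA, and the 24 h libraries came from cells given siRNA 1 or siRNA 2 against TEAD1, with 1 library for each siRNA. All 3 were grown in DMEM with 10% fetal bovine serum. The miRNAs described are the 485 of 2652 human entries whose mean count over these 3 of the 7 libraries was at least 10. They hold 99.96% of the miRNA reads of each library. The entries just inside this limit were miR-1262, miR-5009-5p and miR-6515-3p (mean count 10), and just outside stood miR-199b-3p, miR-5091 and miR-5587-3p (9.67).

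The labels do not say whether the libraries came from separate cultures. The p-values thus reflect the spread among the sequenced libraries and nothing wider, and that spread may be technical. The 2 libraries at 24 h received different siRNAs, and the untreated condition has a single library that was assumed to vary like them. No library of cells given a control siRNA is among the samples, so the effects of transfection, of the hours in culture and of TEAD1 loss cannot be told apart. TEAD1 is an mRNA that small RNA libraries do not measure, so the knockdown could not be checked here.

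A miRNA is cut from a hairpin precursor, and either arm of the hairpin (5p or 3p) can be loaded into Argonaute. The loaded strand recognises its targets mainly through the seed, bases 2 to 8 from its 5′ end. The arm that is usually kept is called the guide and the other the passenger. How reads were assigned to a miRNA is not given in the sources used here. A fragment of another RNA that holds the same letters may be counted under a miRNA's name, which was not tested. TEAD proteins act with the coactivators YAP and TAZ, which in liver control cell growth and organ size.

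The mature sequences on which the results turn are given as deposited, 5′ to 3′, with the seed in capitals. The first set holds the 4 miRNAs that passed the test and miR-12136, whose sequence belongs to a mitochondrial tRNA.
miR-1246: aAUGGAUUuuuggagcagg
miR-492: aGGACCUGcgggacaagauucuu
miR-4485-3p: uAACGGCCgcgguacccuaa
miR-1260b: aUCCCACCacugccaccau
miR-12136: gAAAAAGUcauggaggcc
The second set holds the 4 let-7 passenger strands that share the seed UAUACAA.
let-7a-3p: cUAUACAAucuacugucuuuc
let-7b-3p: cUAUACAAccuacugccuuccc
let-7f-1-3p: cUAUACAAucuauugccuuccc
miR-98-3p: cUAUACAAcuuacuacuuuccc
The third set holds the miR-29 family, which shares the seed AGCACCA.
miR-29a-3p: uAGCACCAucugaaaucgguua
miR-29b-3p: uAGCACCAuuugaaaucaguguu
miR-29c-3p: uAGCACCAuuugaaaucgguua

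In the RefSeq table of GRCh38, miR-1246 lies at chr2:176601024-176601042 on the minus strand and miR-1260b at chr11:96341447-96341465 on the plus strand, neither within a longer gene of that strand in GENCODE 29. miR-492 lies at chr12:94834427-94834449 on the plus strand, in an exon of the keratin pseudogene KRT19P2. miR-4485-3p lies at chr11:10508277-10508296 on the minus strand, in an exon of MTRNR2L8, and miR-12136 at chr1:632668-632685 on the minus strand, in an intron of the pseudogene AL669831.3. let-7a-3p has a copy at chr9:94176013-94176033 and another at chr22:46112800-46112820, both on the plus strand. The copy on chromosome 22 shares an exon of the non-coding host gene MIRLET7BHG with let-7b-3p at chr22:46113745-46113766. let-7f-1-3p lies at chr9:94176409-94176430 on the plus strand, in an intron of the non-coding gene AL158152.2, and miR-98-3p at chrX:53556241-53556262 on the minus strand, in an intron of HUWE1. miR-29a-3p (chr7:130876748-130876769) and 1 copy of miR-29b-3p (chr7:130877467-130877489) lie on the minus strand of chromosome 7. The other copy of miR-29b-3p (chr1:207802450-207802472) and miR-29c-3p (chr1:207801865-207801886) lie in exons of the non-coding gene MIR29B2CHG. Of the 485 miRNAs, 435 have an entry in this table, and all 435 carry the same letters there as in the deposited files.

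The deposited counts summed to 14088845 to 15591345 reads per library, called all reads below. Of these, 6171851 (untreated), 3739729 (siRNA 1) and 2808944 (siRNA 2) were assigned to a miRNA. These are 43.1%, 26.5% and 18.0% of the reads, with 95% Clopper-Pearson intervals of 43.1 to 43.2, 26.5 to 26.6 and 18.0 to 18.0. Intervals and floors cover counting error only, because the files carry no molecular identifiers. Levels are given as CPM, miRNA reads scaled to a library of 1e+06 miRNA reads with TMM factors, and the floor that 3 reads set is 0.475 CPM in the untreated library, 0.771 with siRNA 1 and 1.14 with siRNA 2. Of the liver-enriched list, miR-122-5p stood at 38.6, 28.0 and 4.17 CPM in the untreated, siRNA 1 and siRNA 2 libraries, and miR-122-3p and miR-885-5p had 0 reads in all 3. The list summed to 17849, 15643 and 24890 CPM, most of it miR-148a-3p. In the blood cell, muscle and neuron lists, miR-144-3p, miR-223-3p, miR-133b, miR-206 and miR-124-3p had 0 reads in all 3 libraries, but other entries were read. miR-451a of blood cells stood at 9.97, 11.1 and 11.7 CPM, and miR-142-3p had 10, 5 and 5 reads. miR-1-3p of muscle stood at 19.2, 18.0 and 25.4 CPM. miR-9-5p and miR-137-3p of neurons were abundant enough to test. The summed CPM of these lists was 13.5, 14.1 and 14.8 for blood cells (7 entries), 19.6, 18.3 and 25.4 for muscle (4), and 3345, 3370 and 3505 for neurons (4, nearly all miR-128-3p). It was 390, 386 and 459 for fibroblasts, smooth muscle and endothelium (7 entries), and 3.64, 2.83 and 4.93 for pluripotent or placental cells (8, of which miR-367-3p, miR-371a-3p and miR-517a-3p had 0 reads).

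At 24 h, 4 of the 485 miRNAs (0.825%) differed from untreated cells at an adjusted p under 0.05, by edgeR's quasi-likelihood test with Benjamini-Hochberg adjustment. miR-1246, miR-492 and miR-4485-3p rose (0.619%) and miR-1260b fell (0.206%). None of the abundant miRNAs of this line passed. At an unadjusted p under 0.05 there were 27 (5.57%), 19 higher (3.92%) and 8 lower (1.65%). miR-492 and miR-4485-3p have mean counts below the minimum of 50 set for naming, and were singled out after their values were seen. Both had under 10 reads in the untreated library and passed the count limit through the 24 h libraries, so a higher level at 24 h was a condition of their being tested and their p-values are given as a description. Without any count limit (1345 miRNAs tested) the same 4 passed.

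miR-1246 is named as a miRNA, and its 19 letters also lie within 8 annotated small nuclear RNA genes, RNU2-1 among them, the U2 RNA of the spliceosome. It had 19 reads in the untreated library, 108 with siRNA 1 and 160 with siRNA 2. These are 3.01 CPM (95% interval 1.81 to 4.70), 27.8 CPM and 60.6 CPM. Both 24 h libraries lay far above the untreated one, and siRNA 2 was the higher. The log2 fold change was 3.85 ± 0.60 (SE) (edgeR, adjusted p = 1.4e-07), and the mean CPM at 24 h was 14.7-fold the untreated CPM. With all reads of a library as the scale the log2 fold change was 2.75 ± 1.03, which is 6.74-fold by the fit. On that scale miR-1246 was not called (edgeR, adjusted p = 0.0877). At the later times its CPM without TMM factors was 25.5 and 38.3 with siRNA 1 and 40.1 and 40.1 with siRNA 2 (36 and 48 h), against 3.08 untreated.

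miR-492 is known from a keratin pseudogene, and its letters also occur in the mRNA of KRT19, a keratin of bile duct and progenitor cells. It had 0 reads in the untreated library, 55 with siRNA 1 (14.1 CPM) and 26 with siRNA 2 (9.85 CPM). Against the floor of 3 reads in the untreated library it was at least 25.3-fold higher at 24 h, at least 29.8-fold with siRNA 1 and at least 20.7-fold with siRNA 2. The edgeR test gave an adjusted p of 3.18e-07. At 36 and 48 h it had 1 and 4 reads with siRNA 1 and 2 and 0 reads with siRNA 2, so the high counts were found at 24 h alone.

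miR-4485-3p is a miRNA name whose letters lie within the mitochondrial 16S ribosomal RNA, MT-RNR2. It had 3 reads in the untreated library (0.475 CPM), 29 with siRNA 1 (7.46 CPM) and 12 with siRNA 2 (4.55 CPM). The ratio of 24 h to untreated was 13.2, with an exact counting interval of 4.22 to 66.7, and the log2 fold change was 3.61 ± 0.95 (edgeR, adjusted p = 0.0201), or 2.68 with all reads as the scale (adjusted p = 0.0267). At the later times its CPM without TMM factors was 5.21 and 16.6 with siRNA 1 and 22.7 and 9.54 with siRNA 2 (36 and 48 h), against 0.486 untreated. The other tested miRNAs with under 10 untreated reads were miR-9901, miR-663b and miR-3115.

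miR-1260b was the only miRNA called lower. It had 178 reads in the untreated library, 22 with siRNA 1 and 19 with siRNA 2, or 28.2, 5.66 and 7.20 CPM. Both 24 h libraries were close to each other and well below the untreated one. The log2 fold change was -2.14 ± 0.52 (edgeR, adjusted p = 0.00649), and the untreated CPM was 4.38-fold the mean CPM at 24 h. With all reads as the scale the log2 fold change was -3.16 (edgeR, adjusted p = 0.00489). At the later times it was not low in every library: the CPM without TMM factors was 28.8 untreated, 5.88 and 6.76 at 24 h (siRNA 1 and siRNA 2), 14.6 and 50.2 at 36 h, and 97.9 and 115 at 48 h.

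The calls changed with the libraries, the scale and the tool used. The 3 libraries leave 1 residual degree of freedom. With infinite prior degrees of freedom, the test took its spread from a fit across miRNAs and estimated none for a single miRNA. With all 7 libraries in the fit, 0 miRNAs passed (0%) and 11 had an unadjusted p under 0.05, and with total miRNA counts as the scale 0 passed and 15 had one, while DESeq2 called 2 (0.412%), miR-1246 and miR-492, and limma-voom 8. Over the 17 alternatives the adjusted p of miR-1246 ran from 5.13e-08 to 0.782, with 10 calls, and that of miR-1260b from 8.81e-05 to 0.999, with 9. Over 16 alternatives it ran from 4.87e-15 to 0.733 for miR-492 (10 calls) and from 0.00318 to 0.999 for miR-4485-3p (8 calls). The sign of each of the 4 differences was the same in every alternative that tested it, but the alternatives reuse the same libraries. With 0 untreated reads miR-492 could not change sign, and miR-4485-3p passed the count limit through the 24 h libraries.

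**Figure D1:**
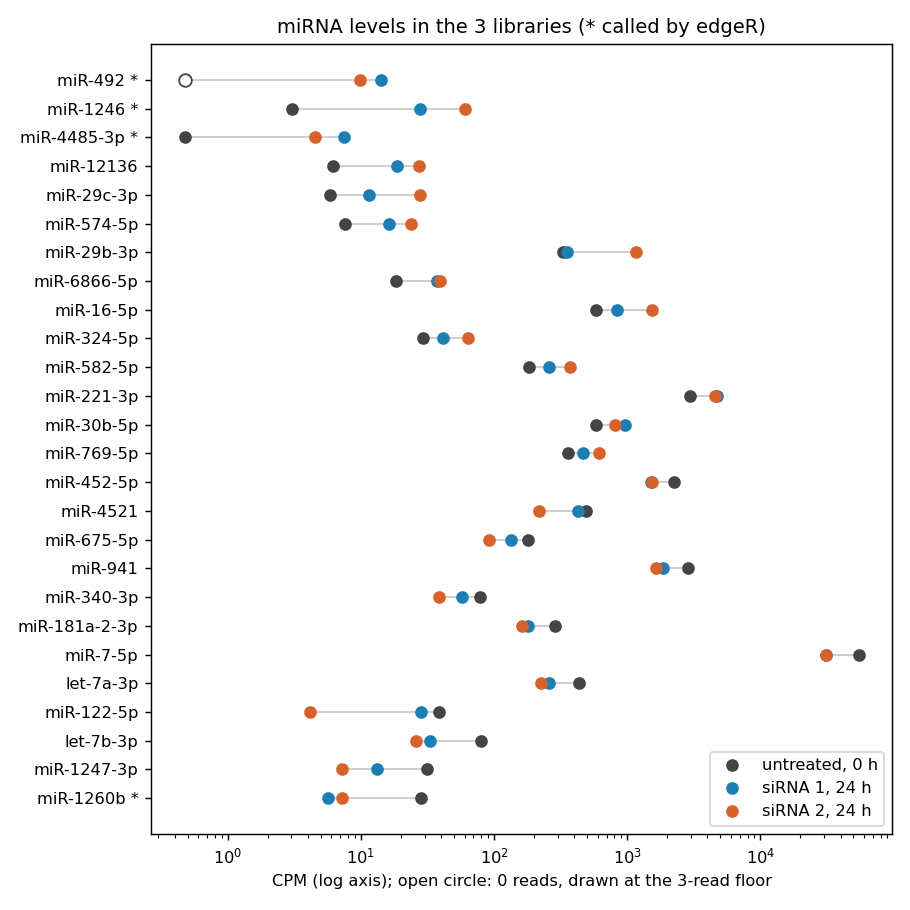
CPM (log axis) of the 26 miRNAs named for their difference in the untreated library and the 2 libraries at 24 h, 1 point per library, with called miRNAs starred. The open circle marks miR-492 with 0 untreated reads, drawn at the 3-read floor of 0.475 CPM. In each row both 24 h points lie on the same side of the untreated point. The naming rule required this of all rows but miR-492 and miR-4485-3p.

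Among the miRNAs closest to the threshold, let-7b-3p stood at 79.2 CPM untreated, 32.9 with siRNA 1 and 25.8 with siRNA 2 (-1.43 ± 0.42, edgeR adjusted p = 0.0532). miR-12136, whose letters lie in the mitochondrial serine tRNA gene MT-TS1, stood at 6.17, 18.8 and 27.3 CPM (1.88 ± 0.56, adjusted p = 0.0532). miR-1247-3p, cut from an exon of the imprinted non-coding gene DIO3OS, stood at 31.2, 13.1 and 7.20 CPM (-1.59 ± 0.49, adjusted p = 0.0647). In all 3 cases the 24 h libraries lay together on 1 side of the untreated library, as the naming rule required. miR-7-5p, known to target EGFR and by far the most abundant of the named miRNAs that were lower, stood at 54778 CPM untreated, 31055 with siRNA 1 and 31166 with siRNA 2. The siRNAs gave almost the same level, and the difference of -0.82 ± 0.29 did not pass (edgeR, adjusted p = 0.164).

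Of the other named miRNAs, miR-122-5p was the most uneven between the siRNAs. miR-122-5p, the main hepatocyte miRNA, stood at 38.6 CPM untreated, 28.0 with siRNA 1 and 4.17 with siRNA 2 (-1.21 ± 0.46, edgeR adjusted p = 0.306), so its difference came mostly from siRNA 2. miR-221-3p, a miRNA often high in liver tumours and known to target the cell cycle inhibitor CDKN1B, stood at 2957, 4742 and 4529 CPM (0.65 ± 0.32, adjusted p = 0.795). miR-941 stood at 2857, 1867 and 1648 CPM (-0.70 ± 0.31, adjusted p = 0.632). In the last 2 both 24 h libraries lay close together and apart from the untreated one. miR-574-5p stood at 7.60, 16.2 and 23.9 CPM (1.38 ± 0.55) and miR-6866-5p at 18.4, 37.3 and 39.0 CPM (1.05 ± 0.48). The other 10 named were miR-582-5p, miR-324-5p, miR-30b-5p and miR-769-5p on the higher side, with log2 differences of 0.79, 0.84, 0.61 and 0.59, and let-7a-3p, miR-181a-2-3p, miR-452-5p, miR-4521, miR-675-5p and miR-340-3p on the lower side, with -0.84, -0.74, -0.57, -0.62, -0.66 and -0.70. None of these passed the test.

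The 10 most abundant miRNAs made up 75.3% of miRNA reads untreated, 73.4% with siRNA 1 and 77.5% with siRNA 2. miR-21-5p, an oncogenic miRNA of many tumours, stood at 309107, 279528 and 437082 CPM (0.21 ± 0.29), with the untreated library between the other 2. let-7f-5p stood at 112892, 127599 and 110284 CPM (0.08 ± 0.29) and miR-30a-5p at 62154, 66506 and 65532 CPM (0.09 ± 0.29). miR-148a-3p, a miRNA abundant in hepatocytes, stood at 15642, 13644 and 23126 CPM (0.23 ± 0.30). Apart from miR-7-5p, the abundant miRNAs had an edgeR adjusted p of 0.99 and differences from -0.16 (let-7g-5p) to 0.23 (miR-148a-3p), each smaller than its SE.

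Over all 485 miRNAs, both 24 h libraries lay above the untreated one for 152 (31.3%), both below for 148 (30.5%), and on either side of it for 185, with a median log2 fold change of 0.02. Taken over miRNAs, the SD of the log2 difference was 0.59 between siRNA 2 and siRNA 1 and 0.56 between 24 h and untreated. The 24 h difference averages 2 libraries and the siRNA difference compares single libraries, so the 2 are not like measures. The 24 h difference was larger than the difference between the siRNAs for 191 miRNAs (39.4%). Among the 110 miRNAs that averaged at least 1000 reads these SDs were 0.40 and 0.32. Among the 243 with a mean count of 10 to 99 they were 0.70 and 0.71, and all 4 calls lay in that range of counts. Of the miRNAs that averaged at least 50 reads, miR-122-5p differed most between the siRNAs, by -2.62 (siRNA 2 minus siRNA 1, log2 CPM), followed by miR-29b-3p at 1.70 and miR-139-5p at 1.32. miR-139-5p stood at 193 CPM untreated, 141 with siRNA 1 and 351 with siRNA 2.

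**Figure D2:**
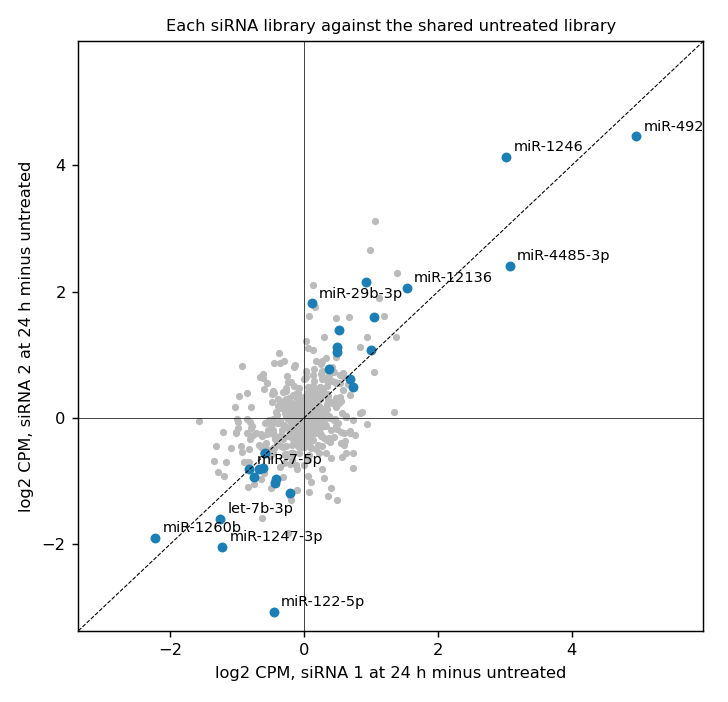
Log2 CPM of the siRNA 1 library (horizontal axis) and of the siRNA 2 library (vertical axis), each minus the shared untreated library, 1 point per miRNA, with the named miRNAs in blue and equal differences on the dashed line. miR-1246, miR-492 and miR-4485-3p lie apart at the upper right and miR-1260b at the lower left, while miR-29b-3p and miR-122-5p lie far from the dashed line; both axes share the untreated library, so the alignment of points is partly built in.

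The mature sequences of 8 of the 485 miRNAs occur whole within structural RNAs annotated in GENCODE 29. They are miR-1246 in U2 small nuclear RNA, miR-4485-3p and miR-12136 in mitochondrial ribosomal and transfer RNA, and miR-1291, miR-6516-5p, miR-664a-3p, miR-664a-5p and miR-1843. Without miR-4485-3p, which passed the count limit through the 24 h libraries, both 24 h libraries lay above the untreated one for 7 of 7, against 31.3% of all tested miRNAs. Of these 7, 1 was called, against 0.825% of all, and their median log2 fold change was 0.84, against 0.02 over all miRNAs. The summed level of all 8, miR-4485-3p included, was 72.7 CPM untreated, 132 with siRNA 1 and 178 with siRNA 2. Of this, miR-1246 held 3.01, 27.8 and 60.6 CPM. All 8 lay above with TMM, DESeq2 or total-count factors, whereas with all reads of a library as the scale 3 lay above, 4 below and the median was -0.16. The 5 that were neither called nor near the threshold had smaller differences: miR-1291 stood at 2.85, 3.60 and 7.58 CPM (0.91 ± 0.70), and miR-1843, the most abundant of them, at 39.4, 46.8 and 48.5 CPM (0.27 ± 0.44). Over all 2652 entries, 16 have such a match, and the 8 that were too low to test had 36, 25 and 6 reads in all in the untreated, siRNA 1 and siRNA 2 libraries. The group was formed after the calls were known, so these counts describe it and support nothing. Nuclear transfer RNA was not among the RNA types searched. miR-1260b, called lower and in the list of entries related to structural RNAs, had no match and is outside the group. Reads assigned to no miRNA made up 56.9% of the untreated library and 73.5% and 82.0% of the 24 h libraries, and their part in these differences was not tested.

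**Figure D3:**
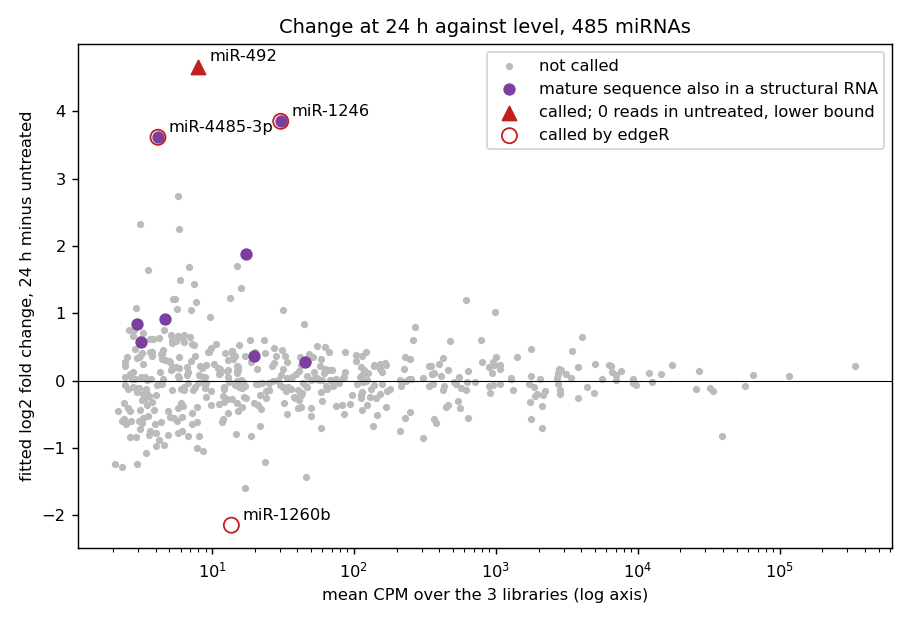
Fitted log2 fold change of 24 h against untreated (vertical axis) by mean CPM (log axis) for 485 miRNAs, with called miRNAs marked in red and the 8 whose sequence lies in a structural RNA in purple. All 4 calls have a mean CPM in the lower part of the range, the purple points lie above 0 (on the scale of all reads 4 of the 8 have both 24 h libraries below untreated), and miR-492 is drawn at its lower bound.

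The let-7 family, which restrains growth genes such as RAS and HMGA2 and is abundant in differentiated cells, was read on both arms. Of its 9 guide arms, 5 had both 24 h libraries above the untreated one and 0 both below, with a median log2 fold change of 0.14, and with total counts as the scale 2 were above, while with all reads as the scale 9 were below. Of its 11 passenger arms, 0 were above and 5 were below, with a median of -0.25, and on the scale of all reads 11 were below. None of the 20 passed the test, although let-7b-3p was called in 5 of the 17 alternatives and let-7a-2-3p with all reads as the scale. The passenger strands with the seed UAUACAA had a median of -0.67, and 3 of the 4 were below the untreated library in both 24 h libraries. let-7a-3p stood at 433 CPM untreated, 257 with siRNA 1 and 225 with siRNA 2 (-0.84 ± 0.35, edgeR adjusted p = 0.414). let-7f-1-3p stood at 105, 70.4 and 79.2 CPM (-0.49 ± 0.39) and miR-98-3p at 21.5, 19.3 and 22.4 CPM (-0.05 ± 0.48). miR-98-3p, the exception, had the untreated library between the other 2.

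In 3 let-7 hairpins the arms differed in side, with the guide above and the passenger below the untreated library in both 24 h libraries. let-7b-5p stood at 5840, 7201 and 6451 CPM (0.23 ± 0.31) while let-7b-3p stood at 79.2, 32.9 and 25.8 CPM. let-7d-5p stood at 1398, 1761 and 2132 CPM (0.48 ± 0.33) while let-7d-3p stood at 290, 185 and 211 CPM (-0.55 ± 0.36). let-7a-5p stood at 25114, 29182 and 26246 CPM (0.14 ± 0.30), opposite to let-7a-3p. With all reads as the scale the guide arms of these hairpins lay below the untreated library as well. Over the 121 hairpins with both arms tested, both arms lay above in 16, both below in 13 and opposite in 15, among them miR-221, miR-324 and miR-675. The log2 fold changes of the arms had a Pearson r of 0.21 and a Spearman rho of 0.26 across hairpins, which share the same 3 libraries and are given as a description.

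**Figure D4:**
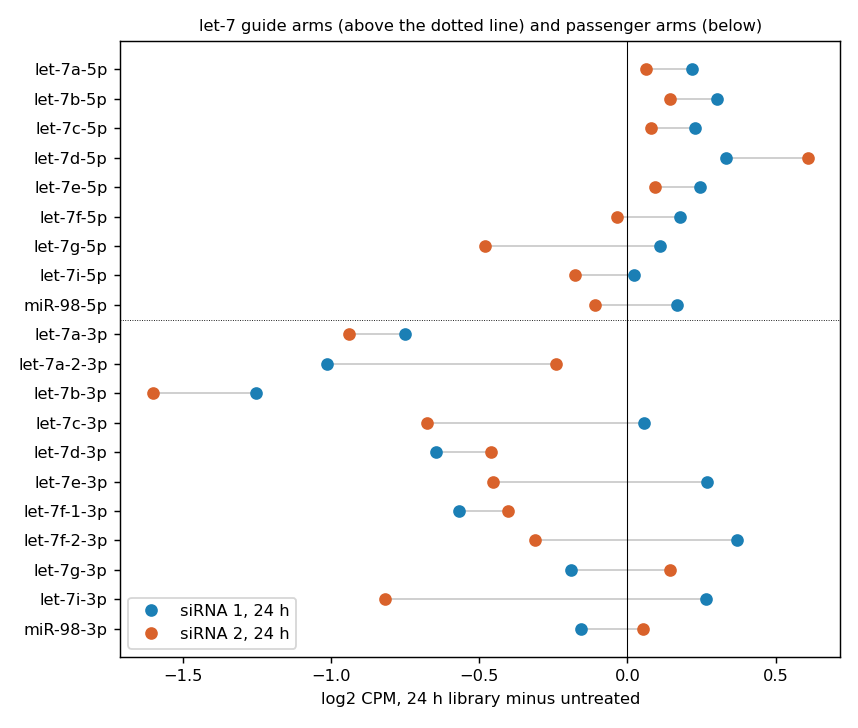
Log2 CPM of each 24 h library minus the untreated library for 9 let-7 guide arms and 11 passenger arms, 1 point per siRNA. The passenger arms of let-7a, let-7b, let-7d and let-7f-1 lie below 0 with both siRNAs, and 5 of the 9 guide arms lie above 0 with both (0 of 9 on the scale of all reads).

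The miR-29 family, known to repress collagens and other matrix genes, had 3 of 3 members above the untreated library in both 24 h libraries, with a median of 1.20 (0.02 with all reads as the scale, where 1 was above and 1 below). miR-29b-3p stood at 329 CPM untreated, 356 with siRNA 1 and 1157 with siRNA 2 (1.20 ± 0.36, edgeR adjusted p = 0.0532). miR-29c-3p stood at 5.86, 11.6 and 27.7 CPM (1.71 ± 0.57, adjusted p = 0.124) and miR-29a-3p at 1180, 1442 and 1586 CPM (0.36 ± 0.33). The siRNA 2 library was the highest for each, and for miR-29b-3p the siRNA 1 library was close to the untreated one. The miR-15/16 family, which targets BCL2 and cell cycle genes, had 4 of 4 tested members above, with a median of 0.42 (-0.55 with all reads as the scale, where 3 were below). miR-16-5p stood at 587, 840 and 1539 CPM (1.02 ± 0.35, adjusted p = 0.135). miR-15b-5p stood at 213, 274 and 261 CPM and miR-15a-5p at 19.5, 28.3 and 23.1 CPM, much nearer to the untreated level.

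Among the other lists, the miR-17~92 cluster, a growth-promoting polycistron, had 1 of 11 tested members above and 5 below (median -0.10), with miR-17-5p at 2143, 1829 and 1914 CPM. The miR-106b~25 cluster had 2 of 6 above and 0 below (median -0.01), the miR-30 family 2 of 5 above and 1 below (0.09), and the miR-181 family 1 of 4 above and 0 below (0.17). Both members of the miR-26 family were above (0.29, and -0.68 with all reads as the scale), as were both tested members of the p53-induced miR-34 family (0.52, and -0.50 with all reads). miR-34a-5p stood at 194, 280 and 310 CPM (0.61 ± 0.37, edgeR adjusted p = 0.99). All 3 tested entries of the neuron list were above (median 0.48; 2 above with total counts, and a median of -0.55 with all reads as the scale, where 3 were below). Both tested arms of miR-7 were below on each scale tried (median -0.52). Of the liver-enriched list 1 of 4 tested members was above and 2 below (-0.03). Of 5 miRNAs linked in the literature to the Hippo pathway, only miR-130a-3p was abundant enough to test, at 38.3, 37.5 and 47.4 CPM (0.14 ± 0.44). miR-375-3p, another of them, had 11 reads untreated and 1 with each siRNA. No member of a list passed the test apart from miR-1246 and miR-1260b in the list of entries related to structural RNAs, where 5 of 6 tested members were above and 1 below (median 0.74, and -0.28 with all reads as the scale).

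**Figure D5:**
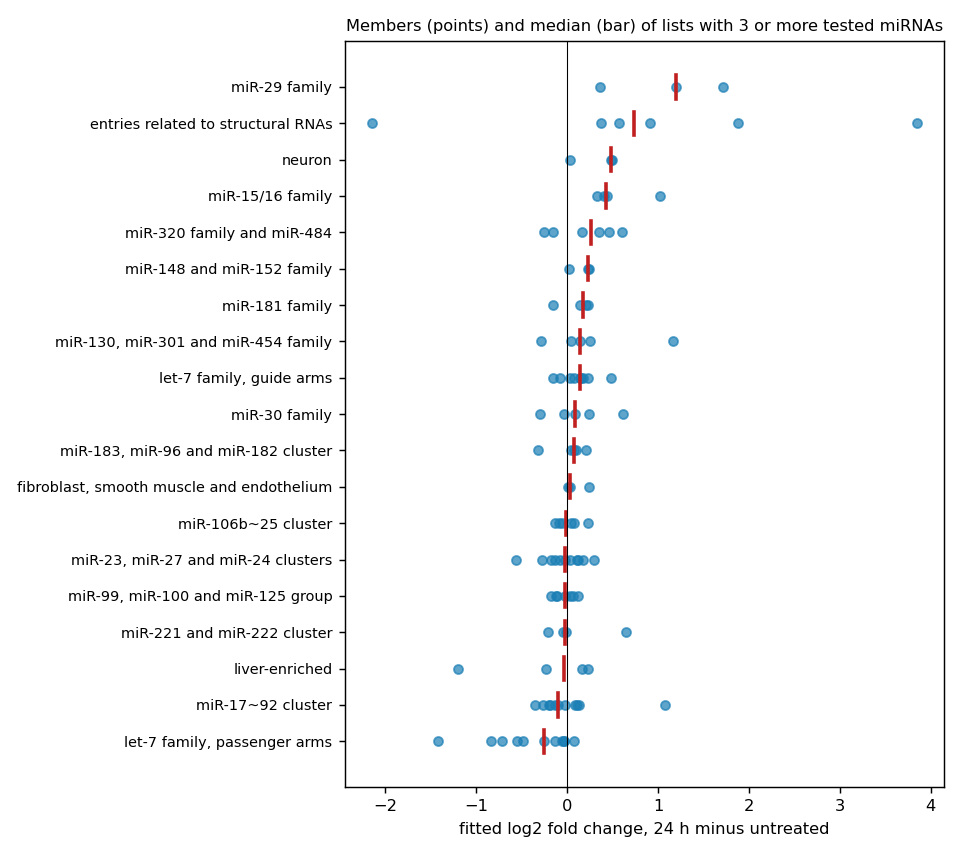
Fitted log2 fold change of 24 h against untreated for the members (points) and the median (red bar) of each list with 3 or more tested miRNAs. The miR-29 family has the highest median (1.20; 0.02 on the scale of all reads) and the let-7 passenger arms the lowest (-0.25), and most other medians lie close to 0.

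Host genes of the tested miRNAs were searched for the core of the MCAT element that TEAD proteins bind, CATTCC or its reverse complement GGAATG. The search covered both strands of the 300 bases that run from 250 before to 50 after the gene start. Sites outside this window were not searched. Of 27305 RefSeq promoters (GRCh38.p14), 14.0% hold the core, and of the 185 host genes of tested miRNAs with such a promoter 22 do (11.9%). Of the 40 miRNAs within those hosts, 9 (22.5%) had both 24 h libraries above the untreated one and 15 (37.5%) both below, with a median of -0.06. Of the 260 within hosts that lack it, 31.5% were above and 30.8% below, with a median of 0.02. None of the 4 called miRNAs is in either group, and members of 1 host share its promoter. The 3 of the 40 with an unadjusted p under 0.05 were let-7b-3p and let-7a-3p, hosted by MIRLET7BHG, and miR-122-5p, hosted by MIR122HG, all lower. These are 3 lower and 0 higher of 40, against 3 lower and 10 higher of the 260 and 1.65% lower of all tested miRNAs, and the let-7 pair shares 1 promoter. The guide arms let-7a-5p (0.14) and let-7b-5p (0.23) of MIRLET7BHG had both 24 h libraries above the untreated one. With all reads as the scale they lay below it. Both arms of let-7a also have copies outside this host. The windows around the matches in these 2 hosts of the 3 lower miRNAs, MIRLET7BHG and MIR122HG, are shown with the motif in capitals. They lie at chr22:46085765-46085824 and chr18:58446055-58446114 on the plus strand.
MIRLET7BHG: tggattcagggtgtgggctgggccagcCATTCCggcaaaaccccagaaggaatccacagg
MIR122HG: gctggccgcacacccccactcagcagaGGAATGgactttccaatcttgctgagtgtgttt
The match is a description of these letters, and binding of TEAD1 was not measured in these libraries.

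By position, the 106 miRNAs in an exon of a longer gene had a median log2 fold change of -0.04, the 264 in an intron 0.02, and the 65 outside longer genes 0.04. Both 24 h libraries lay above the untreated one for 25.5% of the exon group and below it for 38.7%, against 32.2% and 28.8% of the intron group. Across the 485 miRNAs the log2 fold change and GC content had a Spearman rho of -0.13 and a Pearson r of -0.01, given as a description because all miRNAs come from the same 3 libraries. The median ran from 0.11 at a GC content of up to 40% to -0.04 above 60%. The share with both 24 h libraries above was 40.4% up to 40% GC, 35.4% over 40 to 50%, 20.7% over 50 to 60% and 27.1% above 60%.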

How the data were processed

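Per the labels' protocols, total RNA was taken with a column kit and made into libraries with a ligation-based small RNA kit. The authors deposited raw read counts per mature miRNA with each sequence, 1 file per library. Which aligner, counter and genome build were used is not given in the sources used here. The 5 summary lines of each file stayed out of library sizes and tests, and the share of reads they hold is given with the libraries. Libraries were grouped by title, and 4 tested miRNAs share their mature sequence with another, so their counts are uncertain.

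The 3 libraries were fitted with edgeR 4.0.16 (R 4.3.3), TMM factors and the quasi-likelihood F-test, with Benjamini-Hochberg adjustment over 485 miRNAs and a threshold of 0.05. The estimated common dispersion was 0.0485 and the prior degrees of freedom were infinite. Standard errors are the log2 fold change divided by the square root of F. Log2 CPM used a prior count of 2. An exact permutation test of 1 library against 2 cannot go below p = 0.333, so none was run on single miRNAs. The test was also run on simulated counts, and the outcome is not given here.

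The miRNAs to name were the 12 that rose most and the 12 that fell most among those called, provided they averaged at least 50 reads with both 24 h libraries on 1 side of the untreated one, with empty places filled by the smallest p, and the 10 most abundant. Members and the 27 lists were chosen with earlier results of these data known. Sequences were matched to GENCODE 29 transcripts and RefSeq by name and letters. Alternatives were DESeq2 1.42.0, limma-voom (limma 3.58.1), other scales and count filters, all 7 libraries with and without a replicate block, and libraries left out.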

Additional observations from a re-analysis of the deposited data

Results flagged for a closer look

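Reads assigned to no miRNA, which no comparison used, made up 73.5% of the library of siRNA 1 at 24 h and 82.0% of that of siRNA 2 at 24 h, above the 56.9% of the untreated library. They are labelled only as having no feature. What these reads are is not otherwise recorded, and their part in the miRNA differences was not tested.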

How the results depend on the processing

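Against 4 calls (3 higher, 1 lower), DESeq2 gave 2 (2 higher, 0 lower), limma-voom 8 (4 higher, 4 lower), DESeq2 size factors 8 (6 higher, 2 lower), total miRNA counts 0 (0 and 0), all reads 24 (2 higher, 22 lower), all 7 libraries 0 (0 and 0), and 5 libraries without the 36 h pair 7 (4 higher, 3 lower). The prior degrees of freedom fell to 3.04 with total counts, 4.83 with all 7 libraries and 29.3 with the 5 libraries. They stayed infinite with DESeq2 size factors and with all reads. The cause of the changed calls was not tested. No count filter and a mean count of 50 gave 4 each, and so did edgeR's older quasi-likelihood method, chosen after seeing the data. In fits of all libraries that left out 1 library, calls ran from 0 to 9 (0 to 6 higher, 0 to 3 lower): 7 without siRNA 1 at 36 h, 9 without siRNA 2 at 36 h and 0 without any of the other 4. With the siRNA number as a replicate block, 2 were called (2 higher, 0 lower). Further named miRNAs called by some of the 17 alternatives were miR-12136 (6), let-7b-3p (5), miR-1247-3p (5), miR-29b-3p (3) and miR-122-5p (1). miR-9901, which the naming rule did not pick and which had under 10 untreated reads, was called by 2. The siRNA difference correlated between times at 0.10, -0.21 and -0.12. Each difference rests on single libraries, so these values cannot show what libraries of the same siRNA share.

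Both libraries were above untreated for 152 and below for 148 miRNAs, for 14 and 443 with all reads, 274 and 480 of 1345 without a filter, and 92 and 88 of 303 at a mean count of 50, where the number tested changed too. The median of 0.02 became -0.029 with total counts, -0.98 with all reads and -0.092 without a filter. That shift of all reads by construction reversed miR-16-5p (-0.072), miR-582-5p (-0.26), miR-221-3p (-0.33), miR-324-5p (-0.21), miR-30b-5p (-0.35), miR-769-5p (-0.45), miR-21-5p (-0.85), let-7f-5p (-0.89), miR-30a-5p (-0.90), let-7a-5p (-0.83) and miR-148a-3p (-0.85). Without a filter let-7f-5p reversed to -0.0041. Leaving out siRNA 1 at 24 h reversed let-7f-5p (-0.13), miR-30a-5p (-0.019) and let-7a-5p (-0.031), and leaving out siRNA 2 at 24 h reversed miR-21-5p (-0.16), let-7i-5p (0.0032), let-7g-5p (0.090) and miR-148a-3p (-0.22). None of these had been called. Counts near the 3-read floor have wide counting intervals.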
